A study of Mus musculus with 4 samples.

Results

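Dermal white adipose tissue (dWAT), the fat layer around the lower ends of hair follicles (HFs), holds fibroblasts and fat progenitors that are recognised by proteins on their surface, and 8 of the genes for such proteins were followed here: Dpp4, Pi16, Cd34, Ly6a, Dlk1, Cd24a, Icam1 and Thy1. They were chosen by name as surface genes of dermal fibroblasts and preadipocytes, by a rule that used no measured value although earlier results of these data were known, and all 8 were found among the 22913 genes of the series by their Ensembl identifiers. RNA sequencing gave 1 library for each of 4 groups of C57BL/6 mice: OTD (old mice, telogen, dWAT), YTD (young, telogen), OAD (old, anagen) and YAD (young, anagen). Old mice were 18 months and young mice 2 months old, telogen is the resting phase of the HF and anagen its growth phase, and anagen had been induced by depilation. The labels contradict themselves on age: an age field puts YTD at 18 months and OAD at 2 months, whereas the sample titles and the paper give the ages above, and the titles were followed. The study states that 20 mice were used per group and that dWAT was scraped from the bottoms of the HFs after the subcutaneous fat and the panniculus carnosus muscle had been removed. No allele, transgene or drug separated the groups, and whether the mice of a group were pooled into its library is not given in the sources used here.

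Skin fat is renewed with the hair cycle from mesenchymal progenitors. In subcutaneous fat, cells with Dpp4 and Pi16 lie in the interstitium between fat lobules and can give rise to preadipocytes that carry Icam1, while Cd34, Ly6a (Sca-1) and Thy1 (CD90) are shared by many mesenchymal progenitors and Cd24a and Dlk1 (Pref-1) have been used to mark early progenitors and preadipocytes. Each of these proteins is also made by other cells: Cd34, Ly6a and Icam1 by endothelium, Icam1 by leukocytes, and Cd24a and Cd34 by keratinocytes of the HF.

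The values are FPKM, in which the fragments of a gene are divided by its listed length and by the sequencing depth. The listed length of each of the 8 genes equals that of an annotated coding sequence with its stop codon (GENCODE release 21 on GRCm38), so levels are per coding length. With 1 library per group there is no spread between replicates, no test and no p-value, and each difference is one between single libraries. A change is the difference in log2(FPKM + 1), which understates the fold of low genes, and a gene is called changed, or is said to have risen or fallen, when this is at least 1 in size. Folds carry a 95% counting interval (exact binomial) from a rough estimate of the depth, 17400000 to 24300000 fragments per library. These intervals cover counting error only, not the differences between mice. The 4 comparisons share libraries, since each library serves in 1 comparison of age and 1 of phase.

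The libraries differed in more than these genes. The share of all FPKM that fell on mitochondrially encoded genes was 52.7% for OTD and 44.7% for YTD, against 18.3% for OAD and 14.4% for YAD. The summed FPKM of 10 skeletal muscle markers was 58024 for OTD and 91413 for YTD, against 13852 for OAD and 10477 for YAD, with no marker at 0, so muscle RNA was present in each library labelled dWAT. The 12 adipocyte markers, of which none was at 0, summed to 5181, 4884, 1643 and 1133 FPKM in that order. When each library was rescaled to the same sum (TPM), the median log2 change of genes with an FPKM of at least 1 became 0.76 for YAD against YTD and 0.58 for OAD against OTD, against 0.03 and 0.05 with the FPKM as deposited. For OAD against YAD it became -0.21 against -0.00. A phase difference of a gene smaller than that shift therefore depends on the scaling.

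Among genes above 0, the levels ranged from 2.45 FPKM for Dpp4 in YTD to 517 FPKM for Ly6a in OTD. Ly6a was the highest of the 8 in each library. In OTD it was followed by Cd34, Cd24a, Thy1, Pi16, Icam1 and Dpp4, and in YTD by the same genes with Cd24a before Cd34. In OAD the order after Ly6a was Cd24a, Thy1, Cd34, Dpp4, Icam1 and Pi16, and in YAD it was Cd24a, Thy1, Cd34, Dpp4, Pi16 and Icam1. Dpp4 thus stood below Pi16 and Icam1 in both telogen libraries and above them in both anagen libraries. Neighbours in these orders were often close, such as Pi16 at 42.1 and Thy1 at 42.6 FPKM in OTD or Cd34 at 17.8 and Thy1 at 23.0 FPKM in YAD, and with single libraries no spread tells them apart. In bulk tissue fewer cells of a type and less RNA per cell cannot be told apart.

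**Figure D1:**
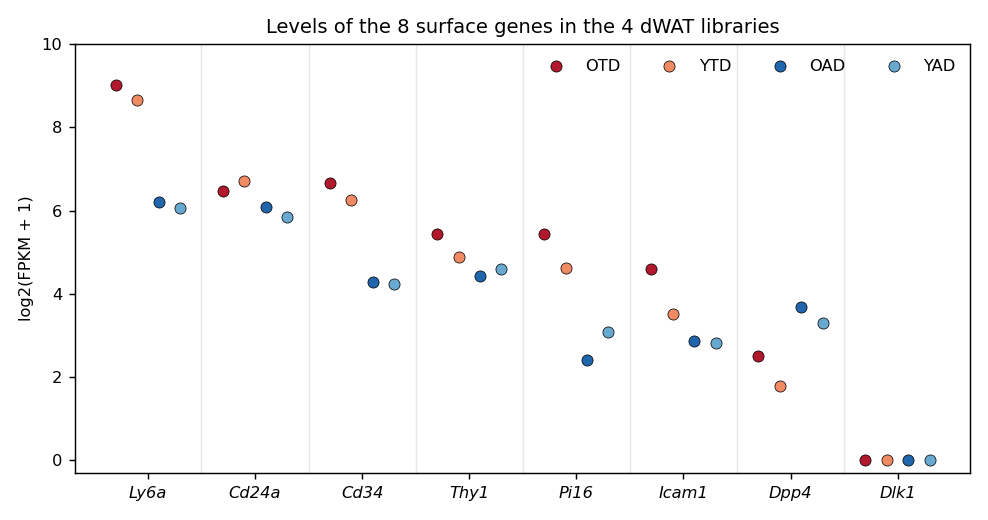
Levels of the 8 surface genes, as log2(FPKM + 1) on the vertical axis, with 1 point for each of the OTD, YTD, OAD and YAD libraries. Ly6a, Cd34, Pi16 and Icam1 were highest in the telogen libraries (red and orange), Dpp4 was highest in the anagen libraries (blue), and Dlk1 was at 0 in all 4.

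Promoter sequences are shown for the gene that was changed with age in telogen, Icam1, and for the pair that marks interstitial progenitors and moved in opposite directions with phase, Dpp4 and Pi16. Each is the 250 bases before the transcription start in RefSeq (GRCm38.p6), on the strand of the gene and 5′ to 3′, and capitals mark matches to the motifs named below. The Icam1 window is chr9:21015690-21015939 (plus strand), that of Dpp4 chr2:62412232-62412481 (minus strand) and that of Pi16 chr17:29318632-29318881 (plus strand).
Icam1: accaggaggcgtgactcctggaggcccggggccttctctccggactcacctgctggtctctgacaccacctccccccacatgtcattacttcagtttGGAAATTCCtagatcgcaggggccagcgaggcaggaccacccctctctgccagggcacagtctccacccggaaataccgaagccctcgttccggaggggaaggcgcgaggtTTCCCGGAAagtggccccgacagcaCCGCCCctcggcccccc
Dpp4: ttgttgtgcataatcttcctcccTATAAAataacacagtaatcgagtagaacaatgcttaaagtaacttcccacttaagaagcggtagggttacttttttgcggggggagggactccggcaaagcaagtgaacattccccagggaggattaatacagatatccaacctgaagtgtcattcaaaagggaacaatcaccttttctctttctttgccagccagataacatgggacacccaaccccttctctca
Pi16: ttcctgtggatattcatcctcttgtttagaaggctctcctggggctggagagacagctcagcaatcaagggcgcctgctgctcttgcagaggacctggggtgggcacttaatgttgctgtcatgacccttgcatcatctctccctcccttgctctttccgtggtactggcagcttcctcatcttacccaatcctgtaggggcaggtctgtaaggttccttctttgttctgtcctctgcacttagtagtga
Motifs were searched on both strands in 32851 windows of this length. The kappa B letters GGAANTTCC stood in 0.813% of all windows, and in the Icam1 window they matched 153 to 145 bases upstream of the start. The STAT letters TTCNNNGAA stood in 7.02% of windows and matched the Icam1 window 42 to 34 bases upstream. The third match there was a Sp1-type box read as GGGCGG on the other strand, 17 to 12 bases upstream, which 32.7% of windows held, and these matches did not overlap. The Dpp4 window held TATAAA, a motif in 12.4% of windows, 227 to 222 bases upstream. The AP-1 letters TGANTCA stood in 6.75% of windows but in none of those of the surface genes. No motif matched in the windows of Pi16, Cd34 and Dlk1, which says only that these letters are not there. The G and C content was 65.2% in the Icam1 window, 52.4% in that of Pi16 and 43.6% in that of Dpp4. Of the 8 genes 5 were in the promoter table, and Ly6a, Cd24a and Thy1 were not.

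Between old and young mice in telogen (OTD against YTD), 6 of the 7 surface genes above 0 were higher in the old library and Cd24a was lower. Among all genes 45.8% were higher and 54.1% lower there. Icam1 rose, and no gene fell, by the threshold of 1 on the log2 scale. Of all 17230 genes above 0 in either library, 1.67% rose and 1.93% fell. The median log2 change of the 7 genes was 0.56, against -0.03 for all genes. By a threshold of a 1.5-fold difference in FPKM + 1, Dpp4, Pi16 and Icam1 were higher in OTD, 3 of 7, beside 16.0% of all genes past it in either direction. In anagen (OAD against YAD) none of the 7 passed a log2 change of 1, where 0.727% of 17613 genes rose and 0.454% fell. Here 5 were higher and 2 lower in the old library, beside 50.0% and 49.9% of all genes. The median log2 change was 0.06 against 0.00 for all genes, and in TPM Cd34, Ly6a and Icam1 turned from higher to lower. Only Pi16 of the 7 passed the 1.5-fold difference, downwards, beside 4.97% of all genes in either direction.

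Between anagen and telogen in young mice (YAD against YTD), Dpp4 rose and Pi16, Cd34 and Ly6a fell, 4 of 7 genes. The background was large: of 17622 genes 16.1% rose and 16.7% fell, and 52.3% passed a 1.5-fold difference, as 6 of the 7 did. In old mice (OAD against OTD) Dpp4 rose and Pi16, Cd34, Ly6a, Icam1 and Thy1 fell, 6 of 7, where 16.1% of 17712 genes rose and 15.6% fell. A 1.5-fold difference was passed by 50.9% of genes and by 6 of the 7. The median log2 change of the 7 genes was -0.87 in young and -1.74 in old mice, against 0.02 and 0.01 for all genes. In TPM the median of the 7 was -0.04 and -1.18, and relative to the median shift of that scaling Dpp4 was still at 1.45 and 1.14 and Pi16 at -1.53 and -3.03. Of all genes, 2829 rose and 2938 fell in the young comparison with the FPKM as deposited, against 5891 and 1274 in TPM, and 2854 rose and 2759 fell in the old comparison, against 4923 and 1502 in TPM.

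**Figure D2:**
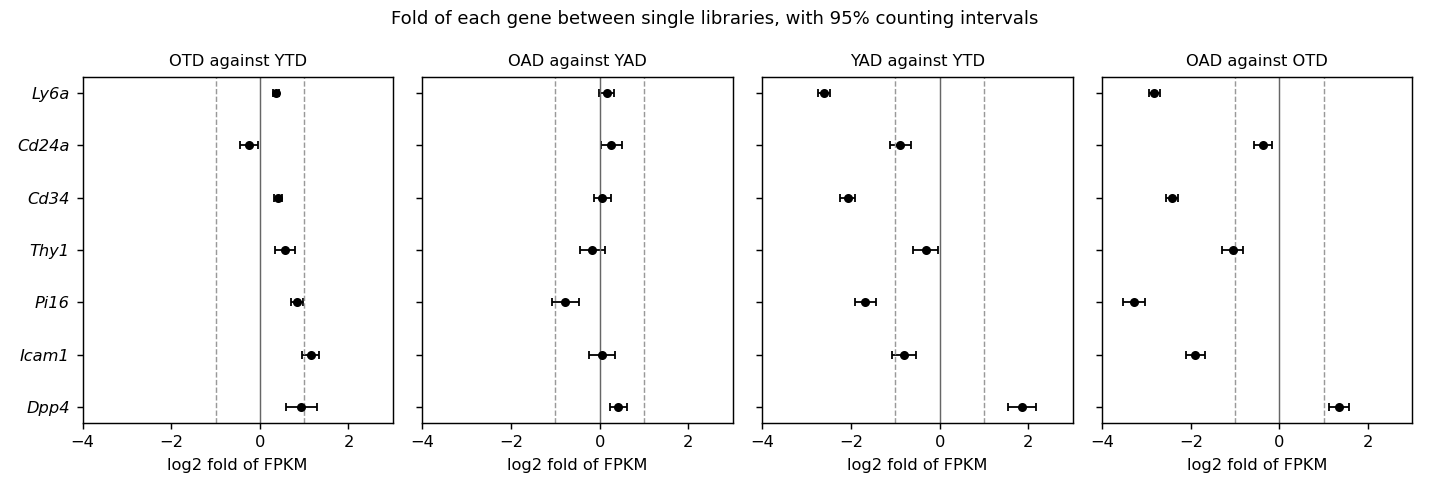
Fold of FPKM on a log2 axis for the 7 surface genes above 0 in each of 4 comparisons between single libraries, with 95% counting intervals as bars and dashed lines at -1 and 1. Icam1 stands farthest to the right in OTD against YTD, Pi16 farthest to the left in OAD against YAD, and Dpp4 alone lies to the right of 0 in both phase comparisons. The axis shows folds without the pseudocount, so values differ slightly from the log2 changes in the text, and in TPM Icam1 and Thy1 in YAD against YTD, Cd24a in OAD against OTD, and Cd34, Ly6a and Icam1 in OAD against YAD change sign.

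Dpp4 (ENSMUSG00000035000, chr2:62330073-62412231, minus strand, 26 exons in the matching transcript) encodes dipeptidyl peptidase 4, a membrane protease that removes a pair of N-terminal residues from chemokines such as Cxcl12. The level of Dpp4 was 4.64 FPKM in OTD and 2.45 in YTD, and 11.8 in OAD and 8.82 in YAD. Both anagen libraries were above both telogen libraries, and within each phase the old library was the higher one. Dpp4 rose with anagen by a log2 change of 1.51 in young mice, a 3.61-fold difference with a counting interval of 2.89 to 4.55. The log2 change was 1.18 in old mice, a 2.54-fold difference with an interval of 2.17 to 2.98. With age the log2 change was 0.71 in telogen, a 1.90-fold difference (interval 1.5 to 2.43), and 0.38 in anagen, 1.34-fold (1.17 to 1.53), both under the threshold. Its substrate gene Cxcl12 went the other way with phase, at 145, 84.3, 45.6 and 32.0 FPKM in OTD, YTD, OAD and YAD. Among relatives of Dpp4, Fap, which encodes the fibroblast activation protein, was at 5.13, 3.96, 4.39 and 5.96 FPKM, and Prep, a cytosolic peptidase, rose with anagen by log2 changes of 1.51 in young and 1.61 in old mice. The Dpp4 to Fap ratio within a library was 0.905 in OTD and 0.618 in YTD, and 2.68 in OAD and 1.48 in YAD. Dpp4 and the other genes overlapped by an annotated antisense gene (Pi16, Cd34 and Icam1) were counted without a stated use of strand, so reads of gene and antisense partner cannot be told apart.

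Pi16 (ENSMUSG00000024011, chr17:29318882-29329413, plus strand, 7 exons) encodes peptidase inhibitor 16, a CAP-domain protein of adventitial and interstitial fibroblasts. It was at 42.1 FPKM in OTD and 23.7 in YTD, and at 4.33 in OAD and 7.43 in YAD. Both telogen libraries were well above both anagen libraries, and the old library was the higher one in telogen and the lower one in anagen. Pi16 fell by 1.55 on the log2 scale from telogen to anagen in young mice, a level 3.19-fold lower (interval 2.71 to 3.76). In TPM this was -0.77, under the threshold. In old mice it fell by 3.01, to a level 9.71-fold lower (8.21 to 11.5), which placed it 66th from the bottom of 17712 genes. With age the log2 change was 0.80 in telogen, 1.78-fold higher in OTD (1.62 to 1.96), and -0.66 in anagen, 1.71-fold higher in YAD (1.38 to 2.12). Neither reached the threshold with the FPKM as deposited, although after rescaling without mitochondrially encoded genes the telogen change was 1.03. The anagen change was the 262nd lowest of 17613 genes. The age change in anagen minus that in telogen was -1.46, the farthest from 0 among the 7 genes, and that difference was not tested. Of the relatives of Pi16, Glipr1, Glipr2 and Pi15 showed the same pair of signs with age. The log2 changes in telogen and anagen were 1.45 and -1.29 for Glipr1, 0.50 and -0.19 for Glipr2, and 0.21 and -0.16 for Pi15. Other relatives did not show it. Crispld2 was higher in the old library in both phases (0.63 and 0.19) and Crispld1 lower in both (-0.27 and -0.13). R3hdml was higher in OTD (0.32) and at 0 in both anagen libraries. Glipr1 was at 5.41, 1.34, 0.249 and 2.06 FPKM, and its OAD value was near the 0.161 FPKM that 3 fragments would give.

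The ratio of Pi16 to Dpp4, which does not depend on the scaling of a library, was 9.06 in OTD and 9.68 in YTD but 0.368 in OAD and 0.842 in YAD. It was thus above 1 in both telogen libraries and below 1 in both anagen libraries. The ratio of Icam1 to Dpp4 crossed 1 in the same way, at 5.01, 4.29, 0.531 and 0.682.

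**Figure D3:**
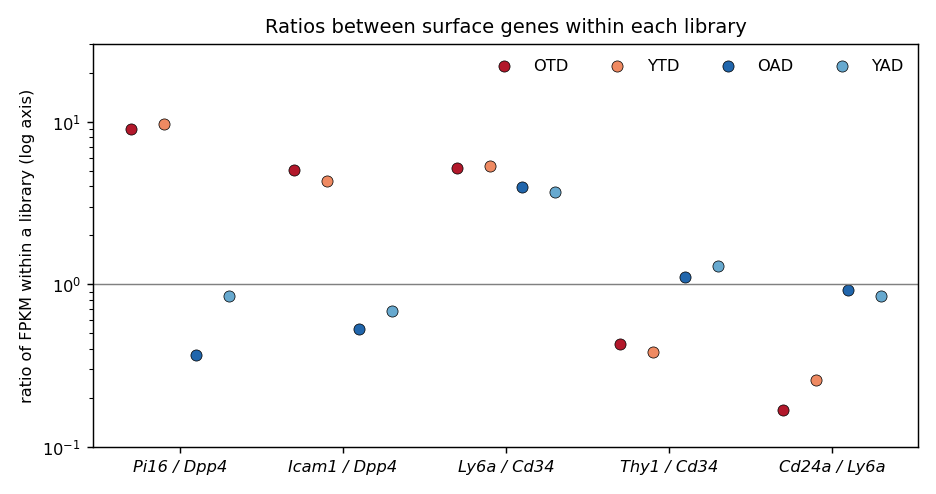
Ratios of FPKM between pairs of surface genes within each library, on a log axis, with 1 point per library and a line at 1. Pi16 to Dpp4 was 9.06 and 9.68 in the telogen libraries and 0.368 and 0.842 in the anagen libraries, while Ly6a to Cd34 stayed between 3.69 and 5.32.

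Cd34 (ENSMUSG00000016494, chr1:194938819-194961279, plus strand, 8 exons) encodes a sialomucin of progenitors, endothelial cells and bulge keratinocytes. Its level was 99.9 FPKM in OTD and 75.2 in YTD, against 18.6 in OAD and 17.8 in YAD. The telogen libraries lay above the anagen libraries, and the anagen pair was nearly level. Cd34 fell with anagen by 2.02 on the log2 scale in young mice, 4.22-fold lower (3.76 to 4.75), and by 2.37 in old mice, 5.38-fold lower (4.89 to 5.93). With age the log2 change was 0.41 in telogen, 1.33-fold (1.25 to 1.42). In anagen it was 0.06, 1.04-fold, and turned to -0.17 in TPM. The interval of 0.908 to 1.20 takes in 1, so this difference between the anagen libraries lay within counting error. Its relatives Podxl and Podxl2, which encode podocalyxin and a similar protein, were lower in anagen too. Podxl was at 25.4, 20.3, 7.22 and 5.22 FPKM and Podxl2 at 20.7, 34.7, 13.2 and 11.4 FPKM. The Podxl2 change with anagen in old mice, -0.62, was near the size of the 0.58 shift in TPM. With age in telogen Podxl2 changed by -0.72, against 0.41 for Cd34.

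Ly6a (ENSMUSG00000075602, chr15:74994877-74998031, minus strand, 4 exons) encodes Sca-1, a small protein anchored to the membrane by a lipid. Telogen levels were 517 FPKM in OTD and 400.2 in YTD, and anagen levels 73.3 in OAD and 65.8 in YAD. The same split by phase was seen, with the old library slightly higher in each phase. Ly6a fell by 2.59 on the log2 scale with anagen in young mice, 6.08-fold lower (5.51 to 6.72). In old mice it fell by 2.80, 7.06-fold lower (6.52 to 7.65). With age the log2 change was 0.37 in telogen, 1.29-fold (1.23 to 1.36), and 0.15 in anagen, 1.11-fold, where the interval of 0.990 to 1.26 takes in 1 and the value turned to -0.08 in TPM. Ly6a has close relatives, and how reads shared between them were assigned is not stated, so its level is uncertain. Ly6c1 fell by 2.34 and 2.60 and Ly6e by 1.92 and 2.29 with anagen in young and old mice, whereas Ly6d, a keratinocyte gene, rose by 3.74 and 3.50. The ratio of Ly6a to Ly6c1 stayed between 0.684 and 0.970 and that of Ly6a to Cd34 between 3.69 and 5.32.

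Dlk1 (ENSMUSG00000040856, chr12:109452849-109463336, plus strand, 6 exons) encodes Pref-1, a membrane protein of preadipocytes related to the Notch ligands. It is listed at 0 in all 4 libraries. At the estimated depth 3 fragments would give 0.130 FPKM in OTD and 0.140 in YTD, and 0.107 in OAD and 0.149 in YAD, so a level up to about that could be missed. An exact 0 in such a table can also be a failed estimate. Of the 22913 genes 4761 were at 0 in all 4 libraries. In each library 28 widely used housekeeping genes, chosen after the values of Dlk1 were seen, were above 0, with a lowest level of 6.63 FPKM. Genes at such levels cannot show whether the estimate failed at Dlk1. Around Dlk1 in the imprinted locus, Rtl1 is also listed at 0 in each library, while Dio3, the gene of the enzyme that inactivates thyroid hormone, was at 0.441, 0.554, 5.35 and 5.53 FPKM and Begain at 0.0891, 0.442, 5.41 and 6.60 FPKM. Both rose with anagen in young and old mice. Meg3, Rian and Mirg were looked for but not found by symbol among the genes of the series. Of the relatives of Dlk1, Dlk2 was at most 0.452 FPKM, and Dll4, a Notch ligand of endothelial cells, was at 8.70, 4.99, 2.03 and 1.69 FPKM.

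Cd24a (ENSMUSG00000047139, chr10:43579169-43584262, plus strand, 2 exons) encodes a short mucin-like protein found on early fat progenitors, leukocytes and keratinocytes. The level was 87.4 FPKM in OTD and 103 in YTD, then 67.4 in OAD and 56.1 in YAD, the narrowest range, as a ratio, of the 7 genes above 0. The young library was the higher one in telogen and the lower one in anagen. The phase change was -0.87 in young mice, 1.84-fold lower (1.57 to 2.18), and -0.37 in old mice, 1.30-fold lower (1.12 to 1.5), and in TPM the latter turned to 0.24. With age the log2 change was -0.24 in telogen and 0.26 in anagen, neither past the threshold. The anagen value was 0.03 in TPM, and the telogen value -0.02 without mitochondrially encoded genes. The coding length of Cd24a is only 231 bases and the genome holds near-identical copies, so its level is uncertain. Its ratio to Ly6a was 0.169 in OTD and 0.258 in YTD, and 0.920 in OAD and 0.853 in YAD. Siglecg, a receptor for Cd24a on B cells, was at most 0.0685 FPKM, under the level of 3 fragments in each library.

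Icam1 (ENSMUSG00000037405, chr9:21015960-21028797, plus strand, 7 exons) encodes an adhesion molecule that binds the beta-2 integrins of leukocytes and marks committed preadipocytes. It was at 23.3 FPKM in OTD and 10.5 in YTD, with 6.26 in OAD and 6.01 in YAD. OTD stood alone above the other libraries, and the anagen pair was level. Icam1 rose with age in telogen by a log2 change of 1.08, a 2.22-fold difference with an interval of 1.94 to 2.54, the 229th highest rise of 17230 genes. In anagen the log2 change with age was 0.05, 1.04-fold, with an interval of 0.852 to 1.27, and in TPM it was -0.16. It fell by 1.74 with anagen in old mice, to a level 3.72-fold lower (3.21 to 4.31). In young mice the change was -0.71, 1.75-fold lower (1.44 to 2.11), and in TPM it was 0.04. Of the integrin genes whose products bind Icam1, Itgb2, Itgax and Itgam were also highest in OTD. Itgb2, the shared beta-2 chain, was at 11.6, 2.86, 0.871 and 1.16 FPKM, and Itgax at 3.59, 0.532, 0.175 and 0.142 FPKM. Itgal, the alpha chain of LFA-1, was instead highest in YAD, at 0.661, 0.412, 0.211 and 0.825 FPKM. Of the relatives of Icam1, the endothelial gene Icam2 was at 28.5, 17.3, 5.34 and 4.01 FPKM, and its log2 change with age in telogen was 0.69. The ratio of Icam1 to Pecam1, an endothelial gene, was 0.196 in OTD and 0.152 in YTD, and 0.262 in OAD and 0.329 in YAD.

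A list of 12 NF-kappa B target genes was chosen with earlier results of these data known. In telogen 1.67% of all genes rose with age and 1.93% fell. Beside the rise of Icam1 in OTD, 5 of the 12 rose and none fell, with a median log2 change of 0.84. Those that rose were Cxcl1, a neutrophil chemokine, with 15.1 against 0.109 FPKM, Il6 with 6.19 against 0.225, Sele, an endothelial selectin, with 13.7 against 4.07, Ccl2, a monocyte chemokine, with 15.6 against 5.95, and Nfkbiz with 5.29 against 1.82 FPKM. The YTD values of Cxcl1 and Il6 were under the FPKM that 3 fragments would give (0.557 and 0.255), so no fold is given for them. Vcam1, another endothelial adhesion gene, was at 6.42 and 3.24 FPKM, a log2 change of 0.81. Relb and Nfkb2 were slightly lower in OTD, with log2 changes of -0.10 and -0.11. In anagen no gene of the list passed the threshold with age, and the median was 0.14. Markers of other cells moved along: 12 endothelial markers summed to 654 FPKM in OTD and 419 in YTD, and 12 leukocyte and macrophage markers to 880 and 517, with no marker of either list at 0. Their part in the Icam1 difference was not tested.

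Thy1 (ENSMUSG00000032011, chr9:44043384-44048579, plus strand, 4 exons) encodes CD90, a membrane glycoprotein of fibroblasts, nerve cells and T cells. Thy1 was at 42.6 FPKM in OTD and 28.7 in YTD, and at 20.5 in OAD and 23.0 in YAD. The telogen libraries were the higher ones, by less than for Cd34 or Ly6a. Thy1 fell by 1.02 with anagen in old mice, 2.08-fold lower (1.77 to 2.44), but in TPM the change was -0.42. In young mice the change was -0.30, 1.25-fold lower (1.03 to 1.51), and in TPM it was 0.51. With age the log2 change was 0.56 in telogen, 1.49-fold (1.27 to 1.74), and -0.16 in anagen, with an old to young ratio of 0.890 and an interval of 0.734 to 1.08 that takes in 1. Its ratio to Pdgfra, the growth factor receptor that marks fibroblasts and fat progenitors, was 7.12 in OTD and 7.56 in YTD, and 10.1 in OAD and 7.49 in YAD. The ratio of Cd34 to Pdgfra was 16.7, 19.8, 9.18 and 5.80 in that order, lower in each anagen library than in either telogen library. The ratio of Dpp4 to Pdgfra was 0.775, 0.644, 5.82 and 2.87. Of T cell genes, Cd3e was at most 0.407 FPKM, Cd247 at most 2.53, Lck at most 1.38 and Cd2 at most 1.02 FPKM.

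The genes most like each surface gene were sought among 188 genes of the lists used here, by the Euclidean distance between log2(FPKM + 1) profiles centred on their mean over the 4 libraries. Such distances over 4 points that share their libraries are descriptions. For Dpp4 they were Sdc4 (0.45), Smpd3 (0.56) and Ada (0.64), against a median distance of 2.87 over the list genes. For Pi16 they were the macrophage gene C1qb (0.35), the mesenchymal gene Vim (0.38) and the macrophage gene Adgre1 (0.39), and for Cd34 they were Ly6e (0.09), the pericyte gene Rgs5 (0.15) and Coro1a (0.26). Ly6a was closest to Mbp (0.15), Rtp4 (0.20) and Cd53 (0.32), and Cd24a to Icam4 (0.19), Nfkb2 (0.22) and Ggt5 (0.27). Icam1 was closest to the contractile genes Tagln (0.14) and Acta2 (0.17) and to Ebf2 (0.18), a preadipocyte factor. Thy1 was closest to Nfkbia (0.09), Csf3r (0.17) and Pdgfra (0.20).

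Lists of related genes give the setting of these values. Of 12 genes that mark interstitial progenitors beside Dpp4 and Pi16, none passed the threshold with age in either phase, and the median change was -0.04 in telogen and 0.05 in anagen. With anagen in young mice 3 rose and 6 fell, where 16.1% and 16.7% of all genes did. In old mice 3 rose and 7 fell, beside 16.1% and 15.6% of all genes. The genes that rose were Bmp7, a growth factor gene, at 1.04, 1.27, 29.1 and 26.1 FPKM in OTD, YTD, OAD and YAD, Creb5 and Smpd3. Among those that fell were Clec3b at 159, 133, 26.1 and 39.7 FPKM, Cd55 at 29.2, 34.7, 7.29 and 7.14 FPKM, and Mfap5, a microfibril gene. Dpp4 and Pi16 themselves lay on opposite sides too. In TPM 3 rose and 3 fell in young mice and 3 rose and 6 fell in old mice, the age median in anagen was -0.12, and without mitochondrially encoded genes that in telogen was 0.07.

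Of 14 genes of committed and regulatory preadipocytes, 3 rose with age in telogen and none in anagen, with medians of 0.62 and 0.11. The 3 were Gdf10 (log2 change 1.16), Meox2 (1.09) and Fmo2 (1.07). Of all genes 1.67% rose with age in telogen and 0.727% in anagen. With anagen 8 fell in young and 11 in old mice and none rose, Cd36, a fatty acid receptor, by the most (2.13 and 2.71 lower). Of 12 pan-mesenchymal genes 4 rose with age in telogen, namely Dcn, a collagen-binding proteoglycan gene (1.38), Mgp (1.15), Nt5e (1.04) and Lum (1.03), and none in anagen, with medians of 0.49 and -0.24. With anagen 8 fell and 1 rose in young mice, and 10 fell and 1 rose in old mice. The gene that rose was Cd44, the hyaluronan receptor, at 8.57, 6.05, 33.0 and 41.8 FPKM. Of 6 papillary fibroblast genes, 3 rose with anagen at both ages (Crabp1, Apcdd1 and Axin2) and none passed the threshold with age. Of all genes 16.1% rose and 16.7% fell with anagen in young mice, and 16.1% rose and 15.6% fell in old mice. All 6 hair matrix markers rose at both ages too, and the paper calls an admixture of hair bulbs in the isolated tissue unavoidable. Which cells the 3 rises came from was not tested. In TPM the preadipocyte genes that fell with anagen were 2 and 6 in young and old mice, and the pan-mesenchymal genes 2 and 6. Of all genes 7.23% and 8.48% fell in that scaling. The age median of the preadipocyte genes in anagen turned to -0.10 in TPM. Crabp1, also a dermal papilla gene, was at 0.959, 0.872, 15.6 and 19.6 FPKM.

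**Figure D4:**
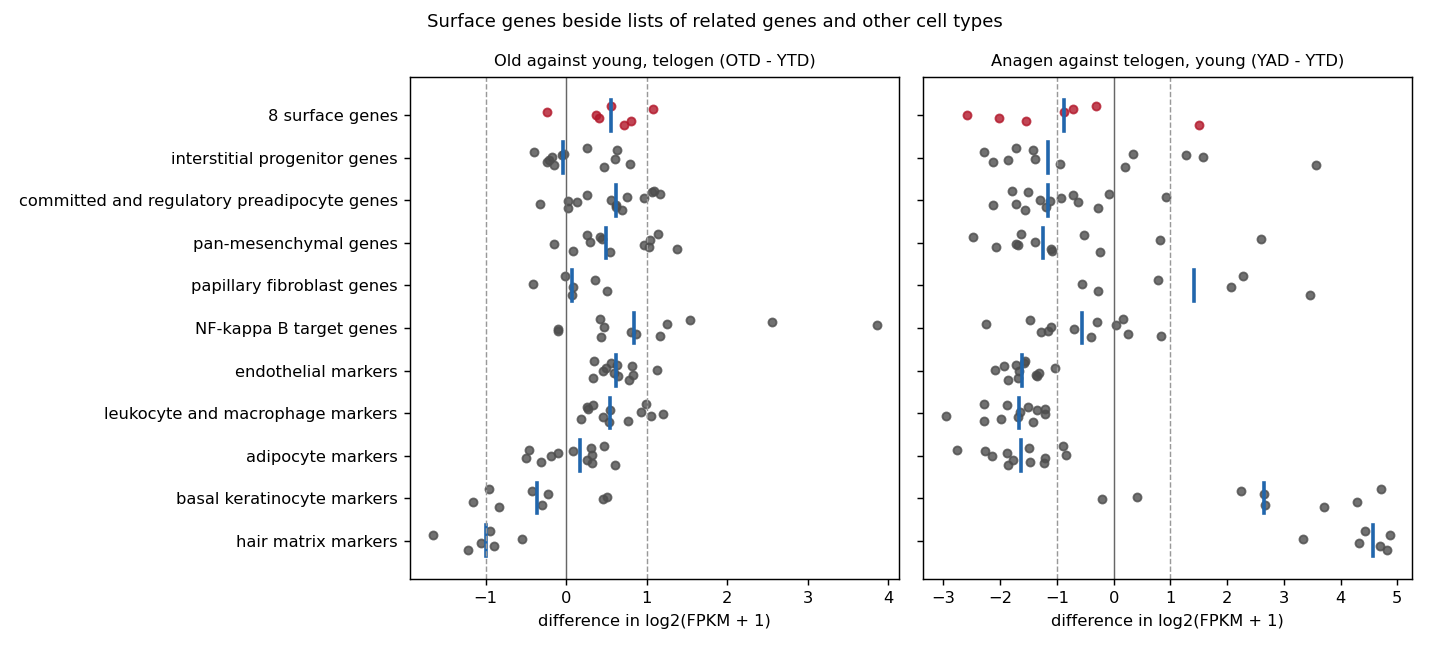
Differences in log2(FPKM + 1) for the 7 surface genes above 0 (red) and for genes of 10 lists (grey), with old against young in telogen on the left and anagen against telogen in young mice on the right. Blue bars are medians and dashed lines stand at -1 and 1. The medians of the mesenchymal, endothelial, leukocyte and adipocyte lists lie below 0 on the right (-1.24, -1.62, -1.67 and -1.63), those of basal keratinocyte and hair matrix markers above it (2.66 and 4.57).

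Of 16 binding partners and cleaving enzymes of the surface proteins, Itgb2, Itgax and Selp rose with age in telogen and none passed the threshold in anagen. The share of all genes that rose with age in telogen was 1.67%. With anagen 1 rose and 2 fell in young mice, where 16.1% and 16.7% of all genes did. In old mice 1 rose and 6 fell, beside 16.1% and 15.6% of all genes. The gene that rose was Sdc4, a heparan sulfate proteoglycan, and the median in young mice, -0.10, became 0.44 in TPM. Adam10 and Adam17, the genes of proteases that shed surface proteins, ranged from 16.0 to 22.8 and from 7.50 to 8.34 FPKM as deposited. These narrow ranges do not hold in TPM, where the anagen values stand higher beside the telogen values. In TPM 3 of the 16 genes rose and none fell in young mice, and 3 rose and 6 fell in old mice. Of 24 relatives of the surface genes, with 23 above 0 in each comparison of age, 1 rose in telogen and 1 fell in anagen, in both cases Glipr1. With anagen 2 rose and 10 fell in young mice, and 2 rose and 9 fell in old mice. In TPM 5 rose and 5 fell in young mice, and 2 rose and 9 fell in old mice. Of 10 interferon-induced genes, to which Ly6a is often added, none passed the threshold with age and all 10 fell with anagen at both ages, for example Rtp4 at 14.4, 11.5, 1.27 and 1.38 FPKM. In TPM 7 and 8 of the 10 fell. Of the NF-kappa B list 5 fell in young and 6 in old mice with anagen, and none rose, whereas in TPM 1 rose and 1 fell in young mice and 5 fell in old mice.

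Markers of other cells moved with phase beside the surface genes. Of all genes 16.1% rose and 16.7% fell with anagen in young mice, and 16.1% rose and 15.6% fell in old mice. In TPM these shares were 33.4% and 7.23% in young mice and 27.8% and 8.48% in old mice. All 12 endothelial markers and all 12 leukocyte and macrophage markers fell with anagen at both ages, and their summed FPKM were 165 and 98.7 in OAD and 124 and 123 in YAD. In TPM 4 and 11 of the endothelial and 7 and 12 of the leukocyte markers fell in young and old mice. Of 8 basal keratinocyte markers 6 rose at both ages, from summed levels of 83.4 FPKM in OTD and 109 in YTD to 1559 in OAD and 1119 in YAD. All 6 hair matrix markers rose, from 5.02 and 18.5 to 545 and 614 FPKM. No marker of these 4 lists was at 0. Of 12 adipocyte markers 10 fell in young and 9 in old mice, and of 10 skeletal muscle markers 10 and 9. Of 8 pericyte and smooth muscle markers 4 and 6 fell, and of 6 nerve and Schwann cell markers 4 and 4. In TPM 5 and 6 adipocyte markers and 9 and 8 muscle markers fell, 2 pericyte markers rose at each age while 3 and 5 fell, and 2 and 4 nerve markers fell, with 1 that rose in young mice. Their part in the phase differences of the surface genes was not tested. The ratio of Cd34 to Pecam1 was 0.840, 1.09, 0.777 and 0.975 in OTD, YTD, OAD and YAD, and that of Ly6a to Pecam1 was 4.35, 5.79, 3.07 and 3.60.

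Of all genes 1.67% rose and 1.93% fell with age in telogen, and 0.727% rose and 0.454% fell in anagen. With age, the endothelial list had 1 riser in telogen (Emcn), the leukocyte list 2 (Cd68 and Cd52) and the pericyte list 2 (Tagln and Acta2). Of the hair matrix markers 3 fell, of the basal keratinocyte markers 1 fell, and of the muscle markers 2 fell, Myh4 and Ttn. In anagen 1 adipocyte marker (Adrb3) and 1 basal keratinocyte marker (Krt14) rose with age, both under the threshold in TPM and in each rescaling that left out genes, and none of the endothelial, leukocyte, pericyte, hair matrix, nerve or muscle lists passed the threshold. T and B cell markers were low, at summed levels of 1.88 to 6.31 FPKM over 10 genes, with no riser, and Cd247 was the one that fell with anagen. Of 8 neutrophil and red cell markers, S100a9 rose with age in both phases and S100a8 in anagen, where S100a8 was under the threshold in TPM. With anagen 2 of these markers fell in young mice and 1 in old mice.

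**Figure D5:**
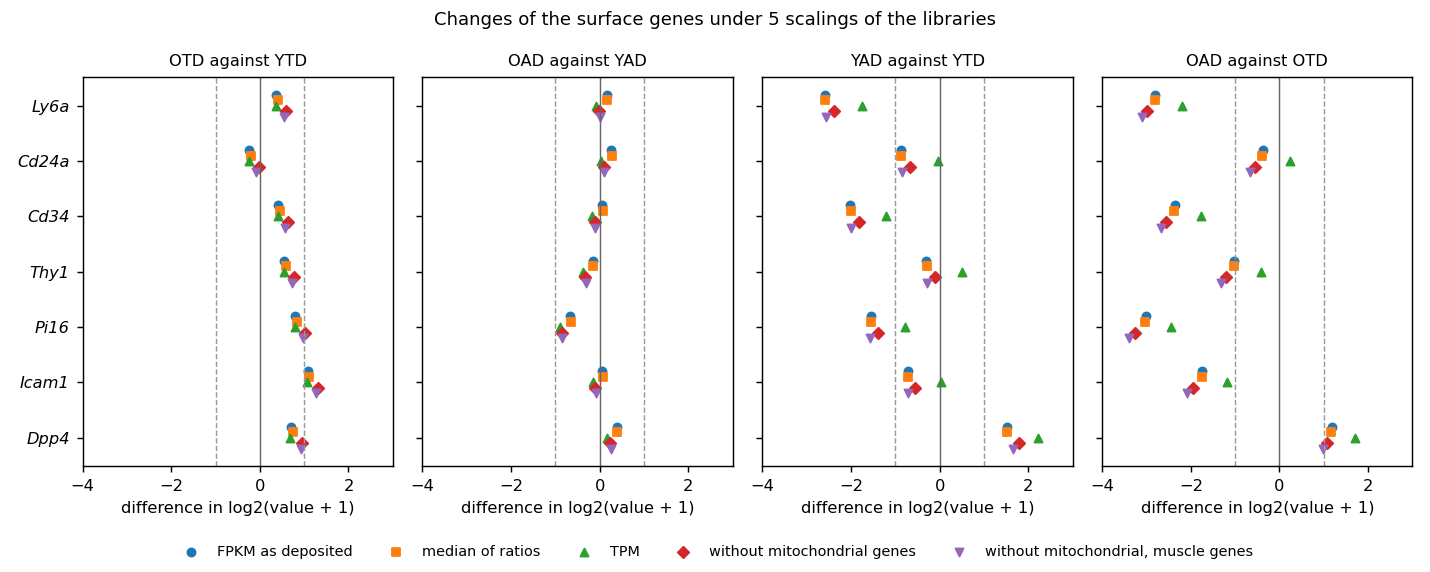
Differences in log2(value + 1) of the 7 surface genes in 4 comparisons under 5 scalings of the libraries, with dashed lines at -1 and 1. Dpp4 lies right of 0 and Pi16, Cd34 and Ly6a left of 0 in both phase comparisons under each scaling shown, whereas in TPM Icam1 and Thy1 cross 0 in YAD against YTD (0.04 and 0.51), Cd24a crosses it in OAD against OTD (0.24), and Cd34, Ly6a and Icam1 cross it in OAD against YAD.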

How the data were processed

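RNA was sequenced from dWAT of OTD, YTD, OAD and YAD mice, 1 library each, with groups taken from the sample titles. Each library's file, as deposited by the authors, lists FPKM for 22913 genes placed on GRCm38. The paper gives an Illumina HiSeq 2500, and the submitters' processing notes name bcl2fastq and TopHat2. The counting tool, annotation and use of strand are not given in the sources used here. The FPKM are not whole reads, and the depth was therefore inferred roughly, from where the lowest values of genes of 2000 to 4000 bases pile up (the value of 1 fragment): 19900000 fragments for OTD, 18500000 for YTD, 24300000 for OAD and 17400000 for YAD.

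Changes are differences in log2(FPKM + 1), with the deposited FPKM unscaled, over genes above 0 in either library. With 1 library per group no test was made. Named are the 8 surface genes, from each list the genes with the largest changes (at most 3 each way, with an FPKM of at least 1), relatives and binding partners, and the 3 nearest profiles. Other list genes that passed the threshold, and Cd3e, Lck, Cd2, Itgal, Siglecg and Dlk2 as low genes, were named after their values were seen. The surface genes and the 19 lists were chosen with earlier results of these data known. Alternatives were pseudocounts of 0.1 and 0.01, an FPKM filter of 1, median-of-ratios scaling, TPM, rescaling without mitochondrially encoded genes or without these and muscle markers, and a 1.5-fold threshold. Rescaling that also left out keratinocyte and hair genes was added after the values were seen. Promoter sequences were read from RefSeq, and the steps were tested on simulated data. Python 3.11.15, numpy 2.4.6, pandas 2.3.3, scipy 1.17.1 and matplotlib 3.10.9 were used.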

Additional observations from a re-analysis of the deposited data

Results flagged for a closer look

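Of the 7 surface genes above 0, 3 had age changes of opposite sign in telogen and anagen, which is a difference between 4 single libraries that was not tested. The share of all genes with such a pair of signs was not computed. Of 12 leukocyte and macrophage markers 12 were higher in OTD than in YTD, and 11 were lower in OAD than in YAD. Of 12 pan-mesenchymal genes 11 were higher in OTD and 9 lower in OAD, whereas all 12 endothelial markers were higher in both old libraries. These counts are for the FPKM as deposited, and in TPM the endothelial markers Cdh5 and Tie1 were lower in OAD than in YAD. Of all genes 45.8% were higher in OTD than in YTD, and 49.9% were lower in OAD than in YAD. Pi16 had a log2 change with age of 0.80 in telogen and -0.66 in anagen. Thy1 had 0.56 and -0.16, and Cd24a -0.24 and 0.26. The counting interval of the anagen fold takes in 1 for Thy1 (0.734 to 1.08) but not for Pi16 or Cd24a. These intervals hold for the FPKM as deposited. The Cd24a change was 0.03 in anagen in TPM, and -0.02 in telogen without mitochondrially encoded genes.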

How the results depend on the processing

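With 1 library per group no library could be left out. No paired analysis was possible because each group is 1 library and the labels give no replicate numbers. The number of surface genes changed in OTD against YTD was 1, and it was 2 without mitochondrially encoded genes, where Pi16 was added at 1.03, and 3 by a 1.5-fold threshold. In OAD against YAD it was 0, and 1 by a 1.5-fold threshold, where Pi16 was lower. In YAD against YTD it was 4, with 3 in TPM, where Pi16 was at -0.77, and 6 by a 1.5-fold threshold. In OAD against OTD it was 6, with 5 in TPM, where Thy1 was at -0.42, and 5 without mitochondrially encoded and muscle genes, where Dpp4 was at 0.97. Of 224 recomputed log2 changes of single genes, 206 kept their sign and side of the threshold, 14 under the threshold turned sign, 1 passed it and 3 no longer did. In OAD against YAD, Cd34 and Icam1 turned sign in TPM and in each rescaling that left out genes, at -0.17 to -0.06 and at -0.16 to -0.06. In the age comparisons the count over all genes depended on the pseudocount: in OTD against YTD 287 rose and 333 fell with a pseudocount of 1, against 1081 and 1063 with 0.1 and 1800 and 1645 with 0.01. In OAD against YAD 128 rose and 80 fell, against 104 and 175 in TPM and 132 and 183 without mitochondrially encoded genes. Depth limits the lowest genes, and no interval covers the spread between mice.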
